A study of Arabidopsis thaliana with 20 samples.

Results

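The step from 4 h to 8 h of high light was examined in leaves of the Arabidopsis thaliana line ilp1-1. It compares the 2 libraries labelled ilp1-1 at 8 h with the 2 at 4 h, which are 4 of the 20 RNA sequencing libraries of the series. They were chosen by these labels alone. The plants were 4 weeks old and had grown in short days of 10 h light and 14 h dark. After 2 h of normal light (100 µmol photons m-2 s-1) they were moved to high light (500 µmol photons m-2 s-1) for 24 h without a break, and 6 h of normal light followed. Whole leaves of ilp1-1 and of the wild type Col-0 were taken at 0, 4, 8, 16 and 30 h, with 2 libraries each. The 4 h harvest therefore lay 6 h after lights on and the 8 h harvest 10 h after lights on, the hour at which the short day would have ended. Both hours were in high light, so more time in high light and a later time of day cannot be told apart. The 2 libraries of Col-0 at each of the same hours gave the wild-type step, and its difference from the ilp1-1 step was tested. The labels do not say whether replicate libraries came from different plants. The p-values therefore cover only the spread between replicate libraries, which may be technical. That spread was estimated over all 20 libraries in 10 groups, not from the 4 libraries of the step alone.

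The plant circadian clock is a loop of genes that peak in turn through the day. The dawn factors CCA1 and LHY repress evening genes through a promoter sequence called the evening element, the PRR proteins follow each other from morning to evening and repress CCA1 and LHY, and the evening complex of ELF3, ELF4 and LUX closes the loop. Genes of light harvesting, starch turnover and cold response take their daily rhythm from this clock and also respond to light and sugar. ILP1 is a nuclear protein that works with the spliceosome, and ilp1-1 is a mutant line of its gene; the labels do not describe the lesion.

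The 4 libraries held 12.2 to 15.69 M (1e6) reads on genes, and the other 16 held 11.4 to 19.0 M. Levels are FPKM as deposited, fragments scaled to gene length and to a size for each library. That size was not the total of reads: it lay at 0.889 to 1.18 times the reads on genes. It stood in a fixed ratio to a size factor, the median over genes of a library's reads relative to their mean over libraries. Differences are on the log2(FPKM + 1) scale, 8 h minus 4 h, with the standard error of the limma fit and 2 libraries per group; this scale understates the change of genes near 0. A gene is said to have risen or fallen where its Benjamini-Hochberg adjusted p was under 0.05. In bulk leaf RNA, fewer cells of a type and less RNA per cell cannot be told apart. The leaf marker RBCS1A, the small subunit of Rubisco, stood at 21726 and 21223 FPKM at 4 h and 19026 and 17858 FPKM at 8 h in ilp1-1. The other leaf markers, RCA and LHCB1.3, fell and are counted with their lists below. Of 8 meristem and flower markers, 6 did not reach the level for testing and AP1 was listed at 0 in every library. Of 8 guard cell markers EPF1 passed the test (12.5%) and of 10 vascular markers SWEET12 passed (10%), near the 12.8% of all genes. Reads from plastid-encoded genes made up 0.203% and 0.453% of the 4 h libraries and 0.0995% and 0.129% of the 8 h libraries, against 0.0188% to 0.0349% in the other 16; their part in the results was not tested, and those genes are described last.

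ILP1 itself (AT5G08550, chromosome 5, 2765642 to 2770282) did not pass across the step. Its level was 4.67 and 5.03 FPKM at 4 h and 4.79 and 5.19 FPKM at 8 h in ilp1-1, and 3.32 and 2.91 at 4 h and 3.16 and 3.49 at 8 h in Col-0, a step of 0.04 ± 0.18 (adjusted p = 0.94) in ilp1-1. All 4 ilp1-1 values lay above all 4 Col-0 values at these hours. The groups are therefore named by their labels, since the deposited levels do not check them.

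From 4 h to 8 h, 2471 of 19311 genes tested passed in ilp1-1, which is 12.8% of them. Of these, 1185 rose (6.14% of genes tested) and 1286 fell (6.66%), and 482 changed at least 2-fold (2.5%). The median of all genes was -0.004, which the deposited scaling by median ratios holds near 0 by construction. Scaling by total reads in place of the deposited scaling turned the split to 1537 higher and 1099 lower, so that 58.3% of calls were higher in place of 48.0%, and moved the median of all genes to 0.03 (0.10 in Col-0). Fewer genes passed with any 1 library left out: 1442 without 4 h replicate 1, 1572 without 4 h replicate 2, 1467 without 8 h replicate 1 and 1528 without 8 h replicate 2. No call of the 2471 changed sign in any of these fits.

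Evening clock genes rose. Of 14 afternoon and evening clock genes tested, 11 rose, 1 fell and 2 did not pass, with a median of 1.44. GRP7, a clock-controlled RNA-binding protein, was at 289 and 296 FPKM at 4 h and 2896 and 2847 FPKM at 8 h. That is a 9.79-fold rise, 3.29 ± 0.09 (adjusted p = 1.3e-11). The evening factor TOC1 (also known as PRR1) was at 4.31 and 4.98 FPKM at 4 h and 28.9 and 32.1 FPKM at 8 h, a step of 2.48 ± 0.13 (adjusted p = 4.5e-09). ELF4, a subunit of the evening complex, was at 15.7 and 13.5 FPKM at 4 h and 159 and 137 FPKM at 8 h, a step of 3.26 ± 0.17 (adjusted p = 6.9e-09). FKF1, a blue-light receptor that times flowering, was at 1.02 and 0.689 FPKM at 4 h and 23.8 and 22.1 FPKM at 8 h, a step of 3.70 ± 0.16 (adjusted p = 2.1e-09). These 4 genes had low values in both 4 h libraries and high values in both 8 h libraries. PRR3 rose by 2.99, PRR5 by 2.30, LUX by 1.498, ELF3 by 1.38, GRP8 by 0.85 and GI by 0.85 (adjusted p at most 0.0026). BOA, a close relative of LUX, rose by 0.80 from levels under 0.1 FPKM, and its call was lost without 4 h replicate 1, without 4 h replicate 2 or without 8 h replicate 2 (adjusted p 0.042 to 0.085 over the libraries left out). CHE, a repressor of CCA1, was the member that fell (28.9 and 30.9 FPKM at 4 h and 19.1 and 19.5 FPKM at 8 h, -0.60 ± 0.10 (adjusted p = 6.2e-04)). ZTL and LKP2, relatives of FKF1, differed by -0.04 and -0.13 and did not pass.

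The steepest rise of any gene meeting the naming rule was that of COR27, a clock-linked gene that is also induced by cold. It was at 0.534 and 0.431 FPKM at 4 h and 57.9 and 50.5 FPKM at 8 h, a 37.2-fold rise on the FPKM + 1 scale (5.22 ± 0.25 (adjusted p = 3.0e-09)). The other genes among the 12 highest that have no place in the list above are next. AT1G07050, which encodes a CCT motif protein, was at 2.45 and 1.96 FPKM at 4 h and 62.0 and 59.6 FPKM at 8 h (4.27 ± 0.16 (adjusted p = 3.5e-10)). COL9, a CONSTANS-like gene, was at 0.521 and 0.561 FPKM at 4 h and 16.3 and 16.4 FPKM at 8 h (3.49 ± 0.16 (adjusted p = 2.8e-09)). DJC76, a chloroplast DnaJ protein, was at 13.5 and 12.2 FPKM at 4 h and 145 and 142 FPKM at 8 h (3.39 ± 0.16 (adjusted p = 3.0e-09)). All 3 stood many times higher in both 8 h libraries than in either 4 h library. AT4G33980, annotated as similar to a cold-regulated gene, rose by 3.77, the DnaJ-domain gene AT1G71000 by 3.28, MEE14 (CCG-binding protein 1) by 3.06, the gene AT1G17665 of unknown function by 3.22, and an unnamed transcript model on chromosome 1 (25990205 to 25992306) by 4.27 (adjusted p at most 7.1e-06).

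The evening element was counted in the promoters of the genes that rose and fell. Promoters were the 300 bases before each annotated gene start, read from the RefSeq genome TAIR10.1. The evening element was searched as AAAATATCT on both strands. It was present in 103 of 1185 promoters of genes that rose (8.69%), in 18 of 1226 of genes that fell (1.47%), in 433 of 16760 of genes that did not pass (2.58%) and in 554 of all 19171 nuclear promoters read (2.89%). The CCA1-binding site AAAAATCT, searched the same way and not contained in the evening element, was in 10.3% of the promoters of risen genes, 8.48% of fallen and 7.88% of all. Of the 12 genes with the highest steps, 5 held an evening element, and so did 7 of the 14 evening clock genes. These shares are descriptions, with no test, and no match says only that these letters are not in the window. The promoters below are those of 3 risen genes described above, GRP7, FKF1 and TOC1, in which it occurs 1 to 3 times, and of PRR5 and PORB, which rose in ilp1-1 and fell in Col-0; capitals mark the evening element on either strand.
GRP7 promoter, chr2:9266558-9266857, minus strand: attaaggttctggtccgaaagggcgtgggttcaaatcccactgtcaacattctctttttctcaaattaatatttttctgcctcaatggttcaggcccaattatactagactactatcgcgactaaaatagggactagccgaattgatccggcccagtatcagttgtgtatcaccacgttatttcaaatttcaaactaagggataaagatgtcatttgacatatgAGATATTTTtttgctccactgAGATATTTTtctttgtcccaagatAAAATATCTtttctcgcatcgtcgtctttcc
FKF1 promoter, chr1:25508339-25508638, plus strand: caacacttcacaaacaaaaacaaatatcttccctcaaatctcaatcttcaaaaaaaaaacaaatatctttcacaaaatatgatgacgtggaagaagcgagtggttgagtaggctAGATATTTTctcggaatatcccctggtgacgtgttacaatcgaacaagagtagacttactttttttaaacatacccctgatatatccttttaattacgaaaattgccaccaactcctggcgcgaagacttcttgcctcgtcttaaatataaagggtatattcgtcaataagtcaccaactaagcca
TOC1 promoter, chr5:24674663-24674962, plus strand: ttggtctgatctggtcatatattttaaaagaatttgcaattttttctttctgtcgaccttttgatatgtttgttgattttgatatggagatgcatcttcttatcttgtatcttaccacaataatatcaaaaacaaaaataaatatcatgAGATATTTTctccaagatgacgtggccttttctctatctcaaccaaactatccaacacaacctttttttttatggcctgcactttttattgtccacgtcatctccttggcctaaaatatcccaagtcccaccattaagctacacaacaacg
PRR5 promoter, chr5:8358547-8358846, minus strand: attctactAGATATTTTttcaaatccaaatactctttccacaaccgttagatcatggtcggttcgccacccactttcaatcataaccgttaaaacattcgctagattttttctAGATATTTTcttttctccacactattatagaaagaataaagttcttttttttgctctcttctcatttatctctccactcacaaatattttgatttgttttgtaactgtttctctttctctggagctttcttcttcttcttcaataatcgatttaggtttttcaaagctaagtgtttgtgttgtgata
PORB promoter, chr4:13725246-13725545, plus strand: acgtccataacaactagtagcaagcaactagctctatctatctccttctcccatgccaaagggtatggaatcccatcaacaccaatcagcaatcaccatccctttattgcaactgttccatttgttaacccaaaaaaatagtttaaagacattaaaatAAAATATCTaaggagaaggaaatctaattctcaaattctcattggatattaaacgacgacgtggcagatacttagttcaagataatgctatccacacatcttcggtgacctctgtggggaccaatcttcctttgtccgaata
In GRP7 the 3 copies began 31, 55 and 76 bases before the gene start, and in FKF1 and TOC1 the copy began 186 and 151 bases before it.

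Morning clock genes fell. Of 18 tested, 12 fell, 1 rose and 5 did not pass, with a median of -1.04, and the counts were the same with any 1 of the 4 libraries left out. CCA1 was at 26.0 and 24.2 FPKM at 4 h and 3.64 and 3.63 FPKM at 8 h, a step of -2.49 ± 0.17 (adjusted p = 9.0e-08). LHY was at 7.06 and 8.49 FPKM at 4 h and 0.635 and 0.596 FPKM at 8 h, a step of -2.44 ± 0.14 (adjusted p = 1.0e-08). RVE8, an activator of evening genes, was at 24.2 and 22.3 FPKM at 4 h and 3.55 and 4.52 FPKM at 8 h, a step of -2.28 ± 0.12 (adjusted p = 8.8e-09). Both libraries of each hour were close for all 3 genes. The hours did not overlap, which the naming rule requires of the 12 lowest genes. The LNK genes, whose proteins act with RVE8, fell as well: LNK3 was at 30.3 and 32.5 FPKM at 4 h and 6.86 and 6.43 FPKM at 8 h (-2.08 ± 0.11 (adjusted p = 5.0e-09)), and LNK4, LNK2 and LNK1 fell by 1.67, 1.47 and 0.64. PRR9, the first PRR of the day, fell by 1.14, and COL2, CDF1, CDF3 and RVE4 fell by 1.57, 1.54, 0.94 and 0.81. RVE2 was the member that rose, at 0.708 and 0.554 FPKM at 4 h and 6.79 and 4.96 FPKM at 8 h (2.06 ± 0.22 (adjusted p = 8.4e-06)). PRR7, the next PRR, was at 26.9 and 24.7 FPKM at 4 h and 23.5 and 24.9 FPKM at 8 h and did not pass (-0.09 ± 0.13 (adjusted p = 0.76)). COL1 was listed at 0 in every library and CDF5 was too low to test. The G-box CACGTG, which reads the same on both strands, was in 8 of 18 promoters of these genes, against 7.94% of all promoters. The 8 were CCA1, LHY, LNK3 and PRR9, which fell, RVE2, which rose, and RVE1, PRR7 and CDF2, which did not pass. Over all genes the G-box was in 11.6% of promoters of genes that rose, 10.7% of those that fell and 7.49% of those that did not pass. The promoter of CCA1 is given as an example, with the G-box in capitals.
CCA1 promoter, chr2:19245291-19245590, plus strand: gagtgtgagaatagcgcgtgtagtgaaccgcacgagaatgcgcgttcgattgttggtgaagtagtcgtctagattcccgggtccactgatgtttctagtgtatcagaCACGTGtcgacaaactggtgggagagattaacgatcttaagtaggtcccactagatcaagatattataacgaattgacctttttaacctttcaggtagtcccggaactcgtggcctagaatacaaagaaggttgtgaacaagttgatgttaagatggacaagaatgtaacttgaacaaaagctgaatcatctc

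**Figure D1:**
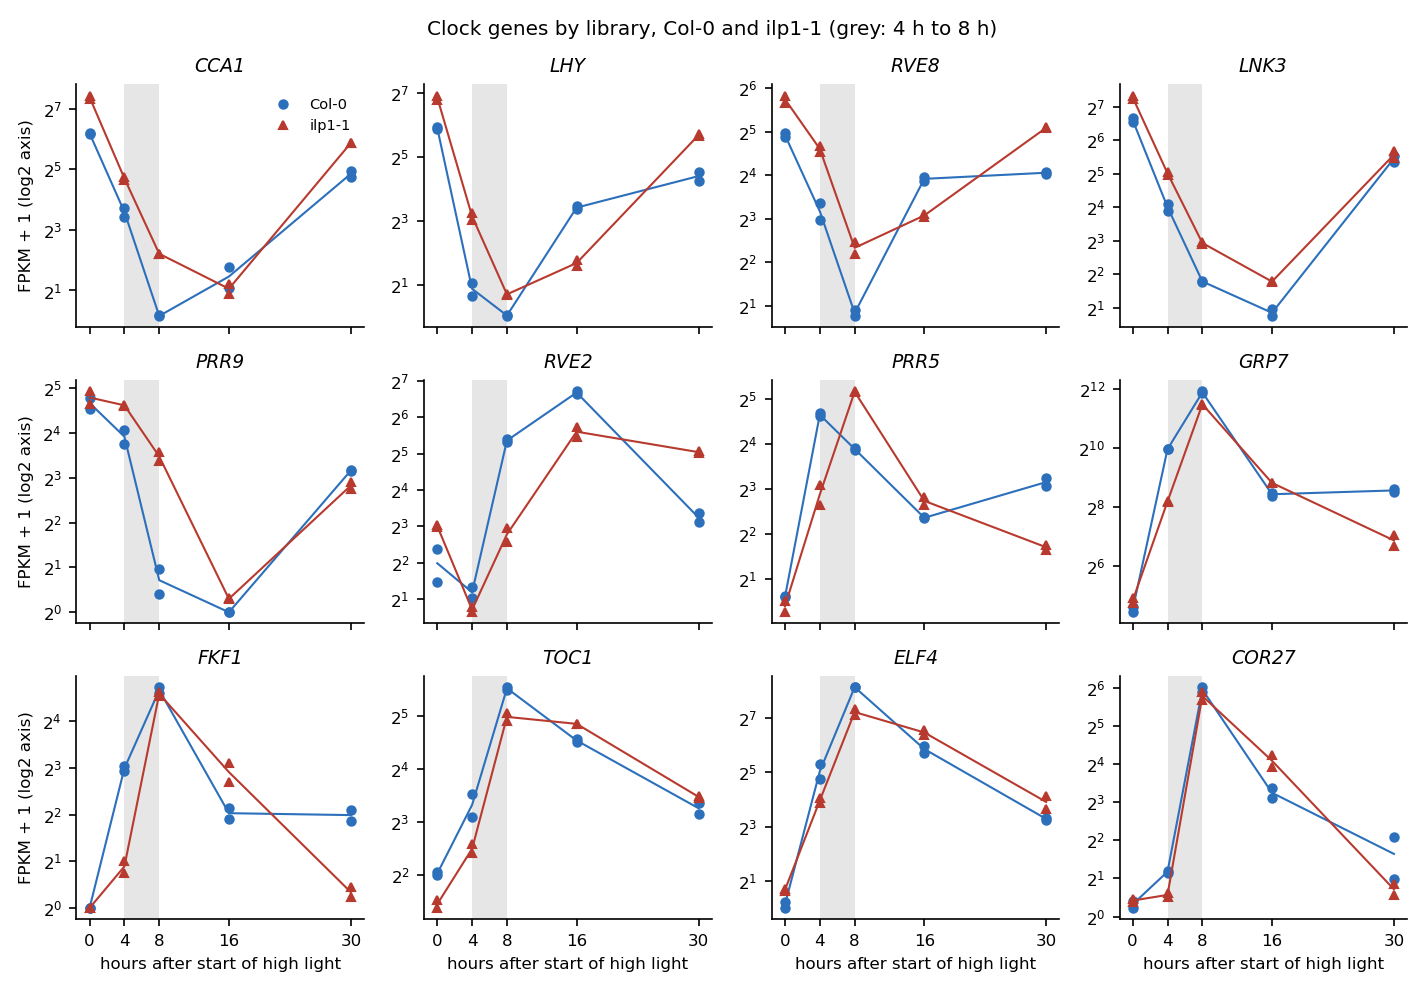
FPKM + 1 on a log2 axis against hours after the start of high light for 12 clock genes, 1 marker per library (triangles, ilp1-1; circles, Col-0), lines through the means of 2 libraries, and the interval from 4 h to 8 h in grey. Within the grey interval CCA1, LHY, RVE8, LNK3 and PRR9 fall and RVE2, PRR5, GRP7, FKF1, TOC1, ELF4 and COR27 rise in ilp1-1, while PRR5 falls in Col-0.

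The plot of clock genes by library also shows where Col-0 stood at the same hours. In Col-0 at 4 h and 8 h, CCA1 was at 12.4 and 9.84 at 4 h and 0.103 and 0.130 at 8 h, and GRP7 at 998 and 1003 at 4 h and 3888 and 3703 at 8 h. At 4 h both ilp1-1 libraries were above both Col-0 libraries for CCA1, LHY and RVE8 and below them for GRP7, FKF1, TOC1 and PRR5. At 8 h both ilp1-1 libraries were still above for CCA1, LHY and RVE8 and below for GRP7 and TOC1. These level differences between genotypes are given as values, with no test.

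The remaining genes among the 12 lowest were of mixed kinds. LHCB2.3, an antenna protein of photosystem II, is described with its family below. LEA2 (AT1G02820), a late embryogenesis abundant protein gene, was at 92.9 and 81.9 FPKM at 4 h and 14.6 and 11.7 FPKM at 8 h (-2.65 ± 0.23 (adjusted p = 1.2e-06)). The B-box gene MIP1A (also BBX30) was at 3.93 and 7.82 FPKM at 4 h and 0.338 and 0.489 FPKM at 8 h (-2.22 ± 0.31 (adjusted p = 1.7e-04)). The cysteine protease gene AT2G27420 and the gene AT5G54130 fell by 2.24 and 2.22. The short gene AT1G06267 was at 8.19 and 2.64 FPKM at 4 h and listed at 0 in both 8 h libraries; its call (adjusted p = 0.044) was lost whichever library was left out. The last 3, TRNY, TRNR.1 and PSBZ, are encoded in the plastid.

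The step of Col-0 was compared with that of ilp1-1 over the same hours; the steps share no library. In Col-0, 2581 genes passed (13.4%; 1218 or 6.31% higher, 1363 or 7.06% lower; 2307 higher and 992 lower with scaling by total reads, 69.9% higher in place of 47.2%). Of the 2471 ilp1-1 calls, 1189 also passed in Col-0, which is 48.1% of the ilp1-1 calls and 46.1% of the Col-0 calls; 470 rose in both, 649 fell in both and 70 moved in opposite directions. Across the 19311 genes the steps had a Pearson r of 0.461 and a Spearman rho of 0.371, as a description, since genes are not independent replicates. The difference of the steps, ilp1-1 minus Col-0, passed for 749 genes (3.88%; 444 or 2.3% positive and 305 or 1.58% negative, but 372 and 449 with scaling by total reads). It passed for 252 of the 1282 genes called in ilp1-1 and not in Col-0, so for the other 1030 of these genes a difference between genotypes was not shown. Leaving out a library gave 469 to 648 such genes, with 485 without ilp1-1 4 h replicate 2, 486 without ilp1-1 8 h replicate 1, 486 without Col-0 4 h replicate 1 and 469 without Col-0 8 h replicate 2.

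**Figure D2:**
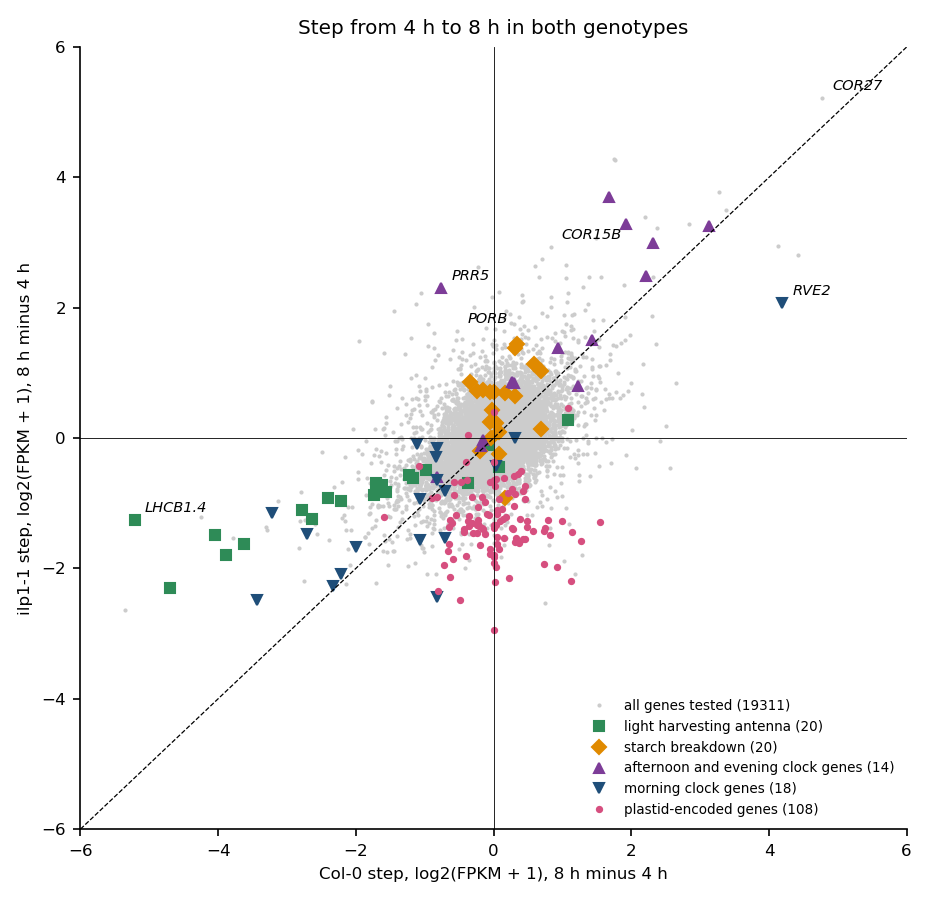
The ilp1-1 step against the Col-0 step, both on the log2(FPKM + 1) scale, for all 19311 genes tested (grey) and 5 gene lists (colours), with the line of equal steps dashed. Antenna genes lie above the line at the lower left, starch breakdown genes lie near 0 in Col-0 and mostly above 0 in ilp1-1, plastid-encoded genes lie below 0 in ilp1-1 around 0 in Col-0, and PRR5 and PORB lie at the upper left.

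Among clock genes, most steps did not differ by genotype beyond the threshold. The difference passed for 4 of 14 evening and 6 of 18 morning members. PRR5 had the widest gap: it was at 7.45 and 5.22 FPKM at 4 h and 34.6 and 34.98 FPKM at 8 h in ilp1-1 and at 24.6 and 23.6 at 4 h and 13.5 and 14.04 at 8 h in Col-0. It rose in ilp1-1 and fell in Col-0, a difference of 3.06 ± 0.20 (adjusted p = 5.7e-07). FKF1 rose by 3.70 in ilp1-1 and 1.68 in Col-0 (difference 2.02 ± 0.23 (adjusted p = 8.7e-05)), and GRP7 by 3.29 and 1.92 (difference 1.37 ± 0.13 (adjusted p = 2.2e-05)). The difference for GRP8 was 0.58 ± 0.13 (adjusted p = 0.018). RVE2 rose less in ilp1-1 than in Col-0, where it was at 1.52 and 1.03 at 4 h and 39.2 and 41.2 at 8 h (difference -2.12 ± 0.31 (adjusted p = 6.8e-04)), but this call was lost with limma-voom on recovered reads. CCA1, LNK2, PRR9 and PRR7 had a lower step in Col-0 (differences 0.94, 1.24, 2.08 and 1.02, adjusted p at most 0.043). LHY had the opposite sign (-1.62 ± 0.19 (adjusted p = 1.2e-04)); in Col-0 it was already at 1.08 and 0.566 FPKM at 4 h. For TOC1, ELF4, LUX, RVE8, LNK3 and COR27 the differences were 0.27, 0.13, 0.07, 0.05, 0.13 and 0.44 with standard errors up to 0.35, and did not pass.

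Light-harvesting antenna genes fell in ilp1-1, and by less than in Col-0. These genes encode the chlorophyll proteins that pass light energy to the photosystems. Of 20 tested, 18 fell, 1 rose and 1 did not pass (median -0.85), and in Col-0 17 fell and 1 rose (median -1.72). The difference of steps passed for 18 members, 16 positive and 2 negative. LHCB1.1 was at 1627 and 1662 FPKM at 4 h and 587 and 587 FPKM at 8 h in ilp1-1 and at 3894 and 3938 at 4 h and 236 and 234 at 8 h in Col-0. It started lower and ended higher in ilp1-1, with steps of -1.48 ± 0.06 (adjusted p = 3.2e-10) and -4.05 ± 0.06 (adjusted p = 1.9e-16) and a difference of 2.57 ± 0.08 (adjusted p = 3.3e-11). LHCB2.3 was at 99.1 and 96.7 FPKM at 4 h and 17.1 and 21.1 FPKM at 8 h in ilp1-1 and at 289 and 287 at 4 h and 9.74 and 10.6 at 8 h in Col-0 (steps -2.31 and -4.70, difference 2.39 ± 0.17 (adjusted p = 7.6e-07)). LHCB5 was at 2415 and 2335 FPKM at 4 h and 1352 and 1314 FPKM at 8 h in ilp1-1 and at 4068 and 3909.8 at 4 h and 1366 and 1327 at 8 h in Col-0 (steps -0.83 and -1.57). LHCB5 reached nearly the same level at 8 h in both genotypes, from a higher level at 4 h in Col-0. LHCB1.4 had the largest positive difference of all genes named by the rule, 3.95 ± 0.30 (adjusted p = 1.8e-06); it was at 184 and 208 FPKM at 4 h and 62.2 and 106 FPKM at 8 h in ilp1-1 and 759 and 666 at 4 h and 21.6 and 15.2 at 8 h in Col-0. The LHCB1 genes, and LHCB2.1 with LHCB2.2, are near-identical copies, LHCB1.5 was listed at 0 in every library, and how shared reads were counted is not given in the sources used here, so the split among copies is uncertain. LHCB4.3 was the member that rose (106 and 95.1 FPKM at 4 h and 128 and 117 FPKM at 8 h, 0.28 ± 0.07 (adjusted p = 0.02)); its call was lost without 4 h replicate 2 and without 8 h replicate 1 (adjusted p up to 0.2), and the rise in Col-0 was larger (1.09 ± 0.07 (adjusted p = 5.2e-08)). LHCA6, which links photosystem I to the NDH complex, fell in ilp1-1 (-0.44 ± 0.06 (adjusted p = 2.3e-04)) while the Col-0 step did not pass (0.07; difference -0.52 ± 0.09 (adjusted p = 0.0037)).

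Nuclear genes of the photosystems and electron transport fell as well. Of 32 tested, 27 fell, 1 rose and 4 did not pass (median -0.41; -0.61 in Col-0), and the difference passed for 14, 13 of them positive. PSAN, a photosystem I subunit, was at 1339.6 and 1190.1 FPKM at 4 h and 662 and 622 FPKM at 8 h (-0.98 ± 0.07 (adjusted p = 1.6e-07)). PSBO2, of the oxygen-evolving complex, was at 562 and 557 FPKM at 4 h and 393 and 390.4 FPKM at 8 h (-0.51 ± 0.04 (adjusted p = 1.2e-06)), beside -0.51 ± 0.04 (adjusted p = 1.0e-06) in Col-0. PSAH2 fell by 0.57. FNR2, the leaf ferredoxin-NADP reductase, was the member that rose: it was at 217 and 212 FPKM at 4 h and 397 and 386 FPKM at 8 h in ilp1-1 (0.86 ± 0.06 (adjusted p = 5.1e-08)) and at 800.4 and 745 at 4 h and 981 and 918 at 8 h in Col-0 (0.30 ± 0.06 (adjusted p = 0.0017)). Its level stayed below that of Col-0 at both hours. FD1, a ferredoxin, fell in ilp1-1 (932 and 978 FPKM at 4 h and 725 and 758 FPKM at 8 h) and rose in Col-0 (726 and 666 at 4 h and 928 and 949 at 8 h; difference -0.80 ± 0.08 (adjusted p = 4.9e-05)). PSBS, which carries the fast part of heat dissipation, differed by -0.0023 and did not pass.

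In the Calvin-Benson cycle 11 of 23 members fell and 1 rose (median -0.21), led by RCA, Rubisco activase, at 2625 and 2553 FPKM at 4 h and 1504 and 1463 FPKM at 8 h (-0.80 ± 0.07 (adjusted p = 9.9e-07)), then PRK (-0.54), GAPA1 (-0.49) and FBA1 (-0.52). CP12-1, the member that rose (0.23), and several members with steps of 0.3 or less lost their call with 1 library left out: 7 to 11 members fell in those fits, 7 without 8 h replicate 2, and none rose. RBCS2B fell in ilp1-1 (-0.27 ± 0.05 (adjusted p = 0.0036)) and rose in Col-0 (0.41 ± 0.05 (adjusted p = 8.5e-05); difference -0.68 ± 0.08 (adjusted p = 9.0e-05)). Photorespiration, the salvage route for the side product of Rubisco, had 10 of 16 members lower and none higher (median -0.22; 6 to 9 lower with a library left out, 6 without 4 h replicate 1). CAT2, the leaf peroxisomal catalase, was at 724 and 709 FPKM at 4 h and 303 and 308 FPKM at 8 h (-1.23 ± 0.07 (adjusted p = 2.4e-08)), and in Col-0 at 495 and 443 at 4 h and 99.2 and 102 at 8 h (-2.21 ± 0.07 (adjusted p = 1.1e-11)). GLDP1, a subunit of glycine decarboxylase, fell by 0.37 in ilp1-1 and rose by 0.38 in Col-0 (difference -0.75 ± 0.10 (adjusted p = 3.0e-04)). HPR1, GGT1 and GLDP2 fell by 0.51, 0.37 and 0.66.

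Chlorophyll synthesis genes fell or did not pass, except PORB and GSA1. Of 24 tested, 11 fell, 2 rose and 11 did not pass (median -0.21; 7 to 9 fell with 1 library left out, 7 without 4 h replicate 2, and the rise of GSA1 was lost without 8 h replicate 1). PORB, which reduces protochlorophyllide in the light, was at 33.4 and 37.0 FPKM at 4 h and 111 and 113 FPKM at 8 h in ilp1-1. In Col-0 it was at 372 and 363 at 4 h and 255 and 251 at 8 h. It rose 3.13-fold in ilp1-1 (1.64 ± 0.09 (adjusted p = 8.9e-09)) and fell in Col-0 (-0.53 ± 0.09 (adjusted p = 7.0e-04)), a difference of 2.18 ± 0.13 (adjusted p = 2.7e-07), while its level in ilp1-1 stayed below that in Col-0 at both hours. HEMA1, the entry enzyme of the pathway, was at 158 and 153 FPKM at 4 h and 70.7 and 77.4 FPKM at 8 h (-1.06 ± 0.07 (adjusted p = 5.1e-08)). CRD1 fell by 0.72 and CAO, which makes chlorophyll b, by 0.80, both by less than in Col-0 (-1.76 and -1.78; differences 1.04 and 0.99, adjusted p at most 4.3e-05). CHLM, a methyltransferase, fell in ilp1-1 (-0.45 ± 0.06 (adjusted p = 4.3e-05)) while in Col-0 its step was -0.00027 (difference -0.45 ± 0.08 (adjusted p = 0.0031)).

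Starch breakdown genes rose in ilp1-1 and mostly did not pass in Col-0. Leaf starch is made by day and degraded at night by phosphorylation of the granule surface, beta-amylases and debranching enzymes. Of 20 tested, 12 rose, 1 fell and 7 did not pass in ilp1-1 (median 0.66), against 3 higher and none lower in Col-0 (median 0.06), and the difference of steps itself passed for 11, 9 of them positive. GWD1, which phosphorylates the granule, was at 43.3 and 41.0 FPKM at 4 h and 113 and 111 FPKM at 8 h in ilp1-1. In Col-0 it was at 121 and 105 at 4 h and 146 and 135 at 8 h. It rose 2.61-fold (1.38 ± 0.09 (adjusted p = 5.4e-08); Col-0 0.31 ± 0.09 (adjusted p = 0.031); difference 1.07 ± 0.13 (adjusted p = 1.2e-04)), and the ilp1-1 level at 8 h reached the range of Col-0 at 4 h. BAM3, the main leaf beta-amylase, was at 544 and 537 FPKM at 4 h and 903 and 871 FPKM at 8 h in ilp1-1 and at 626 and 598 at 4 h and 599.9 and 586 at 8 h in Col-0 (steps 0.71 and -0.05, difference 0.76 ± 0.08 (adjusted p = 5.5e-05)). ISA3, a debranching enzyme, was at 71.4 and 65.9 FPKM at 4 h and 196 and 182 FPKM at 8 h in ilp1-1 and at 92.3 and 93.6 at 4 h and 119 and 117 at 8 h in Col-0 (steps 1.45 and 0.34, difference 1.11 ± 0.19 (adjusted p = 0.0035)). BAM3 and ISA3 were below Col-0 at 4 h and above it at 8 h in every library. PWD, the second granule kinase, rose by 1.14 (Col-0 0.58), PHS1 by 0.74, DPE2 by 0.72, SEX4 by 0.69, AMY3 by 0.71, PHS2 by 0.87 and DPE1 by 0.64. The differences for PHS1, DPE2, AMY3 and PHS2 were 0.89, 0.96, 0.71 and 1.20 (adjusted p at most 0.0047). BAM9 was the member that fell (2.92 and 3.41 FPKM at 4 h and 0.983 and 1.46 FPKM at 8 h, -0.91 ± 0.15 (adjusted p = 6.2e-04)). BAM5 and LDA lost their calls with some libraries left out, and 10 or 11 members rose in each of these fits.

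In starch synthesis 8 of 17 members rose and 1 fell (median 0.25; 4 higher and 3 lower in Col-0, median -0.13), with 6 rising without 4 h replicate 1, 5 without 4 h replicate 2, 4 without 8 h replicate 1, 5 without 8 h replicate 2 and 3 in a fit of the 4 libraries alone. SBE2.1, a branching enzyme, was at 26.5 and 25.8 FPKM at 4 h and 56.4 and 54.8 FPKM at 8 h (1.06 ± 0.09 (adjusted p = 8.9e-07)). PGM rose by 0.53, and APS1, the small subunit of the committed enzyme, by 0.38. GBSS1, the granule-bound synthase that makes amylose, fell and was at 446 and 450.1 FPKM at 4 h and 252 and 255 FPKM at 8 h. The fall was -0.82 ± 0.10 (adjusted p = 5.0e-05), against -2.80 ± 0.10 (adjusted p = 3.0e-11) in Col-0, where it was at 183 and 168 at 4 h and 27.2 and 21.8 at 8 h (difference 1.98 ± 0.14 (adjusted p = 1.3e-06)). Among 18 genes of sucrose synthesis and sugar transport, 3 rose and 2 fell (1 fell without 4 h replicate 1 or without 8 h replicate 2). The triose phosphate translocator gene TPT was at 330.2 and 313 FPKM at 4 h and 215 and 203 FPKM at 8 h (-0.62 ± 0.06 (adjusted p = 5.3e-06)). STP13, a hexose importer, rose in ilp1-1 (8.09 and 8.92 FPKM at 4 h and 23.7 and 24.8 FPKM at 8 h) and fell in Col-0 (24.9 and 19.6 at 4 h and 9.51 and 12.5 at 8 h; difference 2.37 ± 0.31 (adjusted p = 3.0e-04)). SWEET12, a sucrose exporter that is also in the vascular list, rose by 1.44. GPT2, the glucose 6-phosphate importer of the plastid, was at 369.5 and 417 FPKM at 4 h and 370.4 and 387 FPKM at 8 h in ilp1-1 and did not pass (-0.05 ± 0.20 (adjusted p = 0.92)), while in Col-0 it fell (-1.41 ± 0.20 (adjusted p = 1.6e-04); difference 1.36 ± 0.29 (adjusted p = 0.013)).

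**Figure D3:**
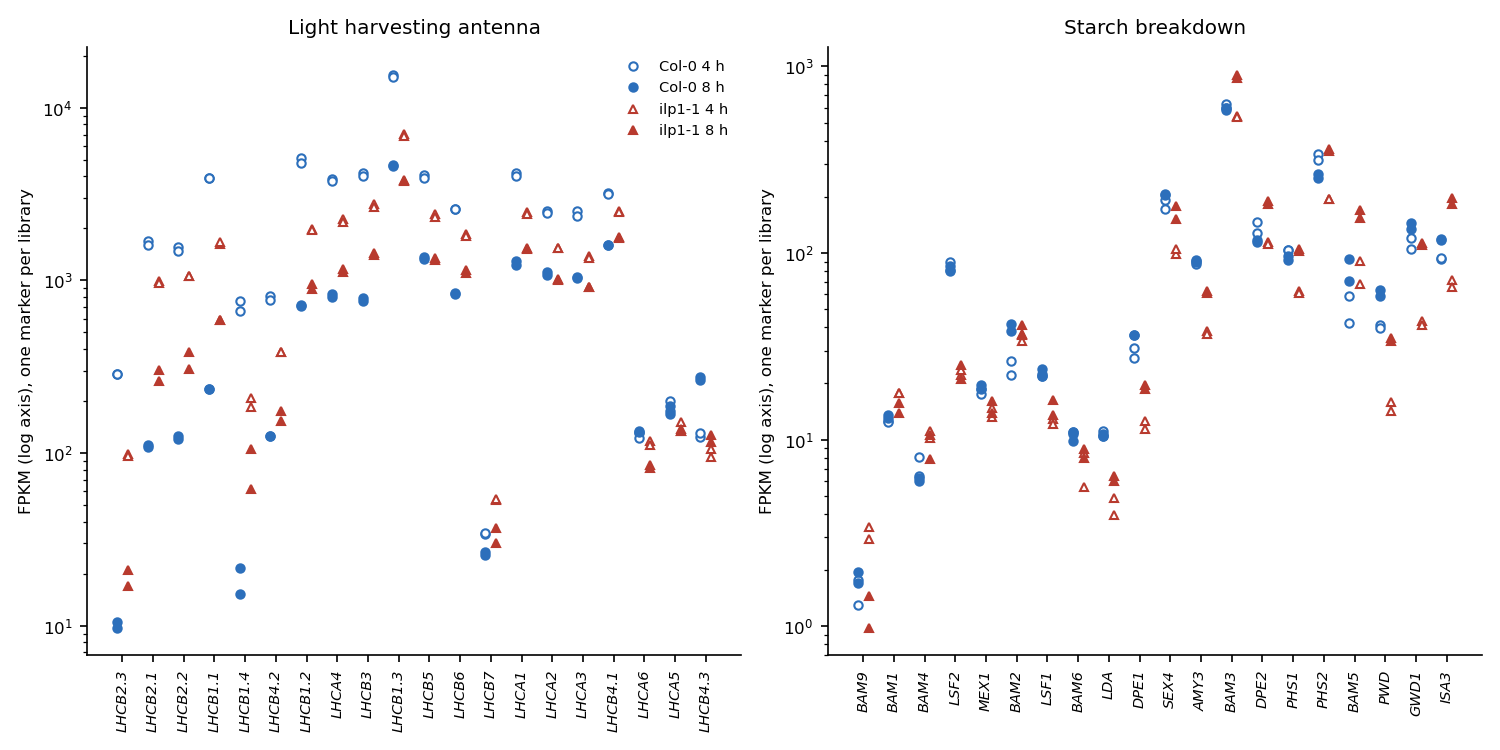
FPKM on a log axis of the 20 antenna genes (left) and the 20 starch breakdown genes (right) tested, 1 marker per library: open for 4 h, filled for 8 h, circles for Col-0 and triangles for ilp1-1, ordered by the ilp1-1 step. The gap between open and filled markers is wider in Col-0 for most antenna genes and wider in ilp1-1 for GWD1, ISA3, BAM3 and PHS1.

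Several genes known for their induction in the cold, among them COR15A, COR15B, KIN1 and KIN2, rose in ilp1-1. Of 31 genes of cold, drought and abscisic acid response, 10 rose, 4 fell and 17 did not pass (median 0.22), and the difference from Col-0 passed for 9, all positive. COR15B, a chloroplast protein that protects membranes in the cold, was at 22.3 and 21.0 FPKM at 4 h and 198 and 148 FPKM at 8 h in ilp1-1 and 338 and 318 at 4 h and 655 and 521 at 8 h in Col-0. It rose 7.60-fold (2.93 ± 0.17 (adjusted p = 1.8e-08); difference 2.10 ± 0.25 (adjusted p = 1.0e-04)) and stayed below Col-0 at both hours. Its neighbour COR15A was at 147 and 145 FPKM at 4 h and 985 and 853 FPKM at 8 h in ilp1-1 (2.64 ± 0.17 (adjusted p = 5.1e-08)) and 1159.9 and 1215 at 4 h and 2029.6 and 1594 at 8 h in Col-0 (difference 2.05 ± 0.24 (adjusted p = 1.1e-04)). KIN2 was at 349 and 391 FPKM at 4 h and 1488 and 1309 FPKM at 8 h (1.91 ± 0.11 (adjusted p = 9.9e-09); difference 1.21 ± 0.15 (adjusted p = 1.8e-04)). CBF3, a transcription factor that activates these genes, was at 7.62 and 7.47 FPKM at 4 h and 14.7 and 15.5 FPKM at 8 h in ilp1-1 and 17.3 and 17.9 at 4 h and 6.97 and 7.29 at 8 h in Col-0. It rose in ilp1-1 (0.92 ± 0.14 (adjusted p = 2.6e-04)) and fell in Col-0 (-1.19 ± 0.14 (adjusted p = 1.5e-05)). RD29A rose by 1.32, and its step in Col-0, -0.46, did not pass (difference 1.78 ± 0.33 (adjusted p = 0.0047)). KIN1, COR413PM1 and COR413IM1 rose by 1.64, 0.48 and 0.60. The abscisic acid factor ABF3 fell (8.78 and 8.36 FPKM at 4 h and 4.56 and 5.39 FPKM at 8 h, -0.68 ± 0.13 (adjusted p = 0.0016)); the falls of GOLS2, HAB1 and RAB18 and the rises of LTI30 and LEA14 were each lost in at least 1 fit without a library. The core of the drought-responsive element to which CBF proteins bind, CCGAC, was in 9 of 31 promoters of the list and in 15.1% of all promoters, searched on both strands. The 9 were COR15A, COR15B, RD29A, COR413PM1, COR413IM1 and LTI30, which rose, GOLS2, which fell, and GOLS3 and RD26, which did not pass. KIN1, KIN2, CBF3 and LEA14, which also rose, held none in the window. Over all genes this core was as frequent in promoters of genes that rose (14.5%) as in those that fell (15.5%) or did not pass (15.2%), within about 1%. The COR15B promoter is shown with it in capitals.
COR15B promoter, chr2:17710434-17710733, minus strand: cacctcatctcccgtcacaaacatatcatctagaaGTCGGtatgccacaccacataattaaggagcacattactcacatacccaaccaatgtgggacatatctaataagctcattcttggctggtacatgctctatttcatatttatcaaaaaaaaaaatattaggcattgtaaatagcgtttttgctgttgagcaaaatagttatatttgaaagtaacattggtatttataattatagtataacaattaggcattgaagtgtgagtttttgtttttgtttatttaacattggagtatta

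Flavonoid and anthocyanin enzymes rose in both genotypes. These enzymes make the red and ultraviolet-absorbing pigments of stressed leaves. Of 21 tested, 18 rose and 3 did not pass (median 0.61), as did 18 in Col-0 (median 1.03); 13 to 16 rose with a library left out. GSTF12, which carries anthocyanin to the vacuole, was at 142 and 127 FPKM at 4 h and 463 and 396 FPKM at 8 h (1.67 ± 0.16 (adjusted p = 4.2e-06)). UF3GT, a late glycosyltransferase, was at 35.3 and 38.8 FPKM at 4 h and 143 and 123 FPKM at 8 h (1.82 ± 0.20 (adjusted p = 1.1e-05)), and LDOX at 154 and 153 FPKM at 4 h and 459.7 and 392 FPKM at 8 h (1.46 ± 0.19 (adjusted p = 8.7e-05)). The genes 5MAT, DFR and TT7 rose by 1.63, 1.37 and 1.52. TT4, chalcone synthase, was at 1732 and 1795 FPKM at 4 h and 2799.9 and 2598 FPKM at 8 h and rose by 0.61 against 1.34 in Col-0 (difference -0.73 ± 0.14 (adjusted p = 0.0053)). The difference was negative and passed for 6 members, TT4, TT5, C4H, 4CL3, CHIL and FLS1, of which FLS1 makes flavonols and the others act before the anthocyanin branch. Among 13 regulators 6 rose and none fell (3 without 8 h replicate 1, 4 without 4 h replicate 1). MYB12 and MYB11, activators of flavonol synthesis, rose by 1.12 and 1.05. The repressor MYBL2 was at 10.5 and 9.15 FPKM at 4 h and 22.9 and 21.4 FPKM at 8 h in ilp1-1 and 23.8 and 17.4 at 4 h and 10.2 and 10.7 at 8 h in Col-0, rising in the former and falling in the latter (difference 1.99 ± 0.21 (adjusted p = 4.9e-05)). PAP1 (AT1G56650), the main activator, was at 271 and 320.2 FPKM at 4 h and 343 and 338 FPKM at 8 h and did not pass (0.21 ± 0.18 (adjusted p = 0.54)).

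Photoprotection and antioxidant genes were mixed, with 3 of 22 higher and 7 lower. ELIP2, an early light-induced protein of the thylakoid, was at 676 and 658 FPKM at 4 h and 212 and 209.7 FPKM at 8 h in ilp1-1. It fell by 1.66 (SE 0.21, adjusted p = 5.1e-05) and was at 10.4 and 7.88 at 4 h and 5.18 and 3.75 at 8 h in Col-0. ELIP1 was at 2636 and 2585 FPKM at 4 h and 2229 and 2231 FPKM at 8 h and did not pass (-0.23 ± 0.13 (adjusted p = 0.32)), while in Col-0 it rose from 98.8 and 107 to 326 and 252 FPKM (1.47 ± 0.13 (adjusted p = 1.2e-06); difference -1.70 ± 0.19 (adjusted p = 7.0e-05)). The 2 xanthophyll cycle enzymes moved in opposite directions. ZEP, which makes violaxanthin, was at 100.2 and 103 FPKM at 4 h and 50.6 and 56.0 FPKM at 8 h (-0.92 ± 0.10 (adjusted p = 8.2e-06)). NPQ1, which converts it back to zeaxanthin, was at 11.8 and 11.4 FPKM at 4 h and 24.9 and 21.2 FPKM at 8 h (0.93 ± 0.10 (adjusted p = 1.2e-05)), with 0.02 in Col-0 (difference 0.91 ± 0.14 (adjusted p = 0.0013)). CAT1 rose by 0.98, and OHP1, OHP2 and SEP2 fell by 0.57, 0.43 and 0.55.

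Folding genes of the endoplasmic reticulum rose. Of 18 tested, 13 rose and none fell (median 0.50; 9 rose in Col-0), with 8 to 12 rising when 1 library was left out, 8 of them without 8 h replicate 2, and 6 in a fit of the 4 libraries alone. BIP2, the HSP70 of the lumen, was at 88.1 and 91.9 FPKM at 4 h and 151 and 169.8 FPKM at 8 h (0.82 ± 0.08 (adjusted p = 6.5e-06)). The calreticulin CRT1 was at 150.2 and 153 FPKM at 4 h and 197 and 209.8 FPKM at 8 h (0.42 ± 0.06 (adjusted p = 1.8e-04)). SDF2 and P58IPK rose by 0.49 and 0.64. BZIP60, a factor of the unfolded protein response, differed by 0.02 and did not pass, and the difference of steps passed for no member. Among 26 heat shock and cytosolic folding genes 4 rose and 1 fell (2 rose without 4 h replicate 2). HSP90.2 was at 143 and 138 FPKM at 4 h and 209 and 196 FPKM at 8 h (0.52 ± 0.08 (adjusted p = 2.7e-04)), and HSP70-1 rose by 0.38; the calls of HSFA2, DREB2A and HSP23.6 were each lost in at least 1 fit without a library.

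Among immune and jasmonate genes the calls were all upward and most depended on single libraries. Of 29 salicylic acid and immunity genes 9 rose and none fell (median 0.48), but 2 rose without 4 h replicate 1, 5 without 4 h replicate 2, 4 without 8 h replicate 1 and 4 without 8 h replicate 2. WRKY33 was at 7.47 and 7.06 FPKM at 4 h and 15.2 and 11.9 FPKM at 8 h (0.81 ± 0.17 (adjusted p = 0.0052)), WRKY18 at 11.9 and 15.9 FPKM at 4 h and 26.9 and 30.03 FPKM at 8 h (0.995 ± 0.22 (adjusted p = 0.0059)), NIMIN1 at 5.06 and 5.88 FPKM at 4 h and 13.1 and 17.4 FPKM at 8 h (1.32 ± 0.29 (adjusted p = 0.0066)) and SARD1 at 5.21 and 6.31 FPKM at 4 h and 9.84 and 11.9 FPKM at 8 h (0.81 ± 0.19 (adjusted p = 0.0083)). Each of these calls was lost in at least 1 fit without a library. In the jasmonate list 6 of 25 rose and none fell (median 0.33), with 2 without 4 h replicate 1 and 4 without 8 h replicate 1. The jasmonate synthesis gene AOC2 was at 183 and 216 FPKM at 4 h and 409 and 449 FPKM at 8 h (1.11 ± 0.11 (adjusted p = 7.3e-06)). AOC3 was at 4.26 and 5.03 FPKM at 4 h and 12.2 and 10.2 FPKM at 8 h (1.11 ± 0.20 (adjusted p = 0.0015)). VSP1, a storage protein induced by jasmonate, was at 28.7 and 52.0 FPKM at 4 h and 121 and 169 FPKM at 8 h (1.86 ± 0.37 (adjusted p = 0.0032)), and OPR3 rose by 0.73; these 2 calls were each lost in 1 or more fits without a library. MYC2 was listed at 0 in every library.

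Nitrogen uptake and assimilation genes were lower in 12 cases. Of 29 tested, 12 fell, 2 rose and 15 did not pass (median -0.27; 13 fell in Col-0), and 5 fell without 4 h replicate 1 against 8 to 10 without another library. The ammonium transporter gene AMT1.2 was at 63.8 and 65.6 FPKM at 4 h and 20.3 and 21.7 FPKM at 8 h (-1.58 ± 0.10 (adjusted p = 5.1e-08)), with the same step in Col-0 (-1.58 ± 0.10 (adjusted p = 2.6e-08)). GLN1.2, a cytosolic glutamine synthetase, was at 113 and 111 FPKM at 4 h and 65.1 and 66.6 FPKM at 8 h (-0.76 ± 0.06 (adjusted p = 8.6e-07)). Its relative GLN1.1 went the other way, at 85.9 and 88.4 FPKM at 4 h and 162 and 176 FPKM at 8 h in ilp1-1 (0.95 ± 0.15 (adjusted p = 4.4e-04)), and did not pass in Col-0 (-0.03; difference 0.98 ± 0.21 (adjusted p = 0.014)). NRT1.7, which moves nitrate out of old leaves, rose by 0.78, and UPM1, of siroheme synthesis, fell by 0.52. Nitrate reductase NIA2 and nitrite reductase NIR1 fell by 0.41 and 0.50 in ilp1-1, and further in Col-0 (-1.27 and -1.56; differences 0.86 and 1.06, adjusted p at most 0.001); the ilp1-1 calls of both were lost in at least 1 fit without a library.

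In light signalling 10 of 21 members fell and 2 rose (median -0.33; 5 fell without 4 h replicate 1, 5 without 8 h replicate 1 and 6 without 8 h replicate 2; 1 rose without 4 h replicate 2, without 8 h replicate 1 or without 8 h replicate 2). HYH, a relative of HY5, was at 109.98 and 112 FPKM at 4 h and 59.5 and 50.7 FPKM at 8 h (-1.002 ± 0.10 (adjusted p = 5.6e-06)). BBX32 was at 7.13 and 6.61 FPKM at 4 h and 2.26 and 1.77 FPKM at 8 h (-1.39 ± 0.18 (adjusted p = 8.7e-05)), BBX31 at 46.5 and 52.6 FPKM at 4 h and 19.6 and 20.2 FPKM at 8 h (-1.27 ± 0.23 (adjusted p = 0.0013)), and PIF5, a growth-promoting factor, fell by 0.73. HY5 itself, a hub of light signalling, was at 25.7 and 27.0 FPKM at 4 h and 22.1 and 24.2 FPKM at 8 h in ilp1-1 and did not pass (-0.18 ± 0.11 (adjusted p = 0.36)), while in Col-0 it rose (1.23 ± 0.11 (adjusted p = 1.3e-06); difference -1.41 ± 0.16 (adjusted p = 7.4e-05)). Mitochondrial dysfunction genes had 2 of 16 higher and 4 lower. The 2 higher calls, OM66 (0.73) and AT12CYS-1 (0.24), were both lost without 4 h replicate 1, without 4 h replicate 2 or without 8 h replicate 1, and AT12CYS-1 also without 8 h replicate 2. NDA1, an alternative NADH dehydrogenase, was at 56.7 and 54.3 FPKM at 4 h and 21.8 and 22.5 FPKM at 8 h (-1.29 ± 0.09 (adjusted p = 1.6e-07)). UPOX was at 148 and 159.6 FPKM at 4 h and 76.3 and 83.2 FPKM at 8 h in ilp1-1 and 10.2 and 10.8 at 4 h and 18.5 and 19.0 at 8 h in Col-0, falling in the former and rising in the latter (difference -1.72 ± 0.30 (adjusted p = 0.0035)); without 4 h replicate 2 or without 8 h replicate 1 its ilp1-1 step did not pass (adjusted p 0.035 to 0.067 over the libraries left out). CRF6 fell by 0.88 and NDB4 by 1.29, the latter not with a pseudocount of 0.1.

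Splicing factors, the class in which ILP1 acts, passed in 7.14% of cases, beside 12.8% of all genes. Of 42 tested, LSM8 rose (26.2 and 22.5 FPKM at 4 h and 32.6 and 35.7 FPKM at 8 h, 0.48 ± 0.11 (adjusted p = 0.011)), RSZ22A (-0.28 ± 0.08 (adjusted p = 0.032)) and SR34 (-0.30 ± 0.09 (adjusted p = 0.036)) fell, and 39 did not pass (median -0.11). Each of these 3 calls was lost in at least 1 fit without a library. MOS4 was next in order, at 72.0 and 71.2 FPKM at 4 h and 58.9 and 61.2 FPKM at 8 h (-0.25 ± 0.08 (adjusted p = 0.05)). In Col-0 RSZ22A rose by 0.30 (difference of steps -0.59, adjusted p = 0.0078). Among the 42, the difference of steps passed as positive for 1 member and as negative for 2. Glucosinolate synthesis had 4 of 19 lower, MYB29 (-0.66 ± 0.10 (adjusted p = 3.9e-04)), MYB28, MYB34 and SOT17, the last 3 of them lost in fits without a library. Carbon starvation genes had 2 of 19 higher, GDH2 (0.64 ± 0.14 (adjusted p = 0.0044)) and DIN2 (2.24 ± 0.58 (adjusted p = 0.017)), both lost in such fits. The mitochondrially encoded genes had 1 of 31 lower, ORF107A, also lost.

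Plastid-encoded genes fell in ilp1-1 from a 4 h level that was far above that of Col-0 and differed between the replicates. Of 108 tested, 59 fell and none rose (median -1.31), against none lower and 1 higher in Col-0 (median 0.00), and the difference of steps passed for 15, all negative; 26 more members were too low to test. PSBA, the D1 protein of photosystem II, was at 294 and 611 FPKM at 4 h and 122 and 154 FPKM at 8 h in ilp1-1 and at 26.5 and 30.4 at 4 h and 14.2 and 22.3 at 8 h in Col-0 (-1.62 ± 0.32 (adjusted p = 0.0026) in ilp1-1). PSBZ, another photosystem II gene, was at 301 and 959.6 FPKM at 4 h and 86.2 and 126 FPKM at 8 h in ilp1-1 and 4.97 and 3.12 at 4 h and 2.23 and 1.501 at 8 h in Col-0 (-2.35 ± 0.45 (adjusted p = 0.0023)). The tRNA genes TRNY and TRNR.1 were at 11.3 and 37.2 FPKM at 4 h and 1.72 and 1.87 FPKM at 8 h and at 35.9 and 57.5 FPKM at 4 h and 7.04 and 7.63 FPKM at 8 h. In these genes 4 h replicate 2 stood highest. Both 8 h libraries stood below both 4 h libraries, which the naming rule requires of PSBZ, TRNY and TRNR.1. By class, the summed level of the 15 photosystem II genes was 1313 and 3314 FPKM at 4 h and 601 and 769.5 FPKM at 8 h in ilp1-1, and 147 to 202 FPKM in the 4 Col-0 libraries. For the 12 genes of the NDH complex it was 73.8 and 159 FPKM at 4 h and 31.6 and 41.4 FPKM at 8 h, and for the 26 ribosomal protein genes 468 and 831 FPKM and 269.9 and 289 FPKM. The class medians of the step ran from -0.84 to -1.54. The count rested on single libraries: 11 genes fell without 4 h replicate 2, 22 without 8 h replicate 1, 42 without 8 h replicate 2 and 68 without 4 h replicate 1, with medians from -0.76 to -1.85. It was 33 with a pseudocount of 0.1 and 7 in a fit of the 4 libraries alone. The libraries were made from poly-A selected RNA, and plastid transcripts are mostly without long poly-A tails; the part of this selection in the values was not tested.

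**Figure D4:**
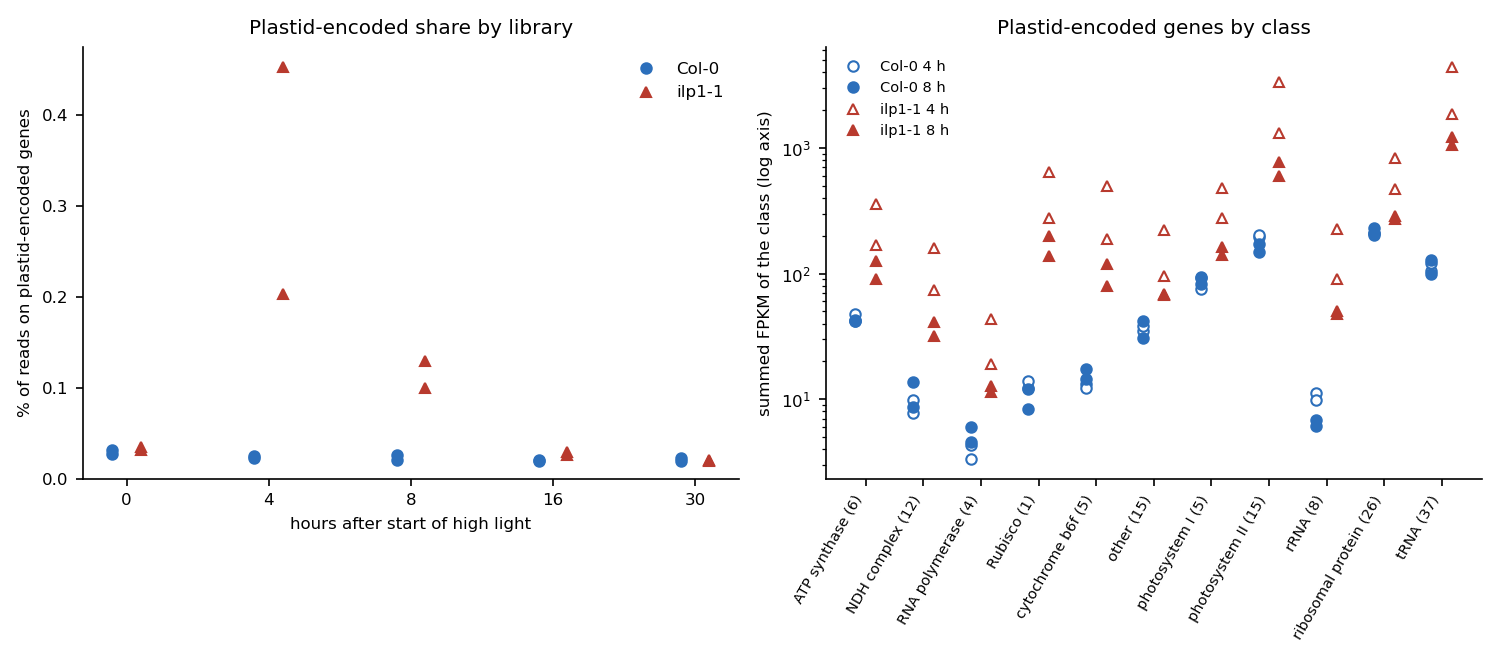
Left, percent of reads on plastid-encoded genes in each of the 20 libraries by hour (triangles, ilp1-1; circles, Col-0); right, summed FPKM on a log axis for each class of plastid-encoded genes, number of genes in brackets, with 1 marker per library (open 4 h, filled 8 h). The ilp1-1 libraries stand at 0.203% and 0.453% at 4 h and 0.0995% and 0.129% at 8 h, with the order of the 4 libraries the same in most classes.

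Nuclear genes that serve plastid transcription and RNA were split, 4 of 21 higher and 4 lower, but 2 were lower without 4 h replicate 1 or without 8 h replicate 2, where the calls of CSP41A and CSP41B were lost. CP29A, an RNA-binding protein of the chloroplast, was at 222 and 229.9 FPKM at 4 h and 413 and 429.9 FPKM at 8 h (0.90 ± 0.06 (adjusted p = 6.6e-08)). The nuclease gene RNJ was at 10.9 and 11.9 FPKM at 4 h and 21.4 and 20.8 FPKM at 8 h (0.84 ± 0.08 (adjusted p = 5.3e-06)), and CP29B rose by 0.54. SIG5, a light-responsive sigma factor of the plastid polymerase, was at 35.4 and 36.8 FPKM at 4 h and 9.59 and 10.5 FPKM at 8 h (-1.75 ± 0.18 (adjusted p = 7.8e-06)), and SIG1 fell by 0.60. In Col-0 the steps were 0.96, 0.96, 0.50, -1.55 and -0.96, and the difference passed for no member of the list.

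**Figure D5:**
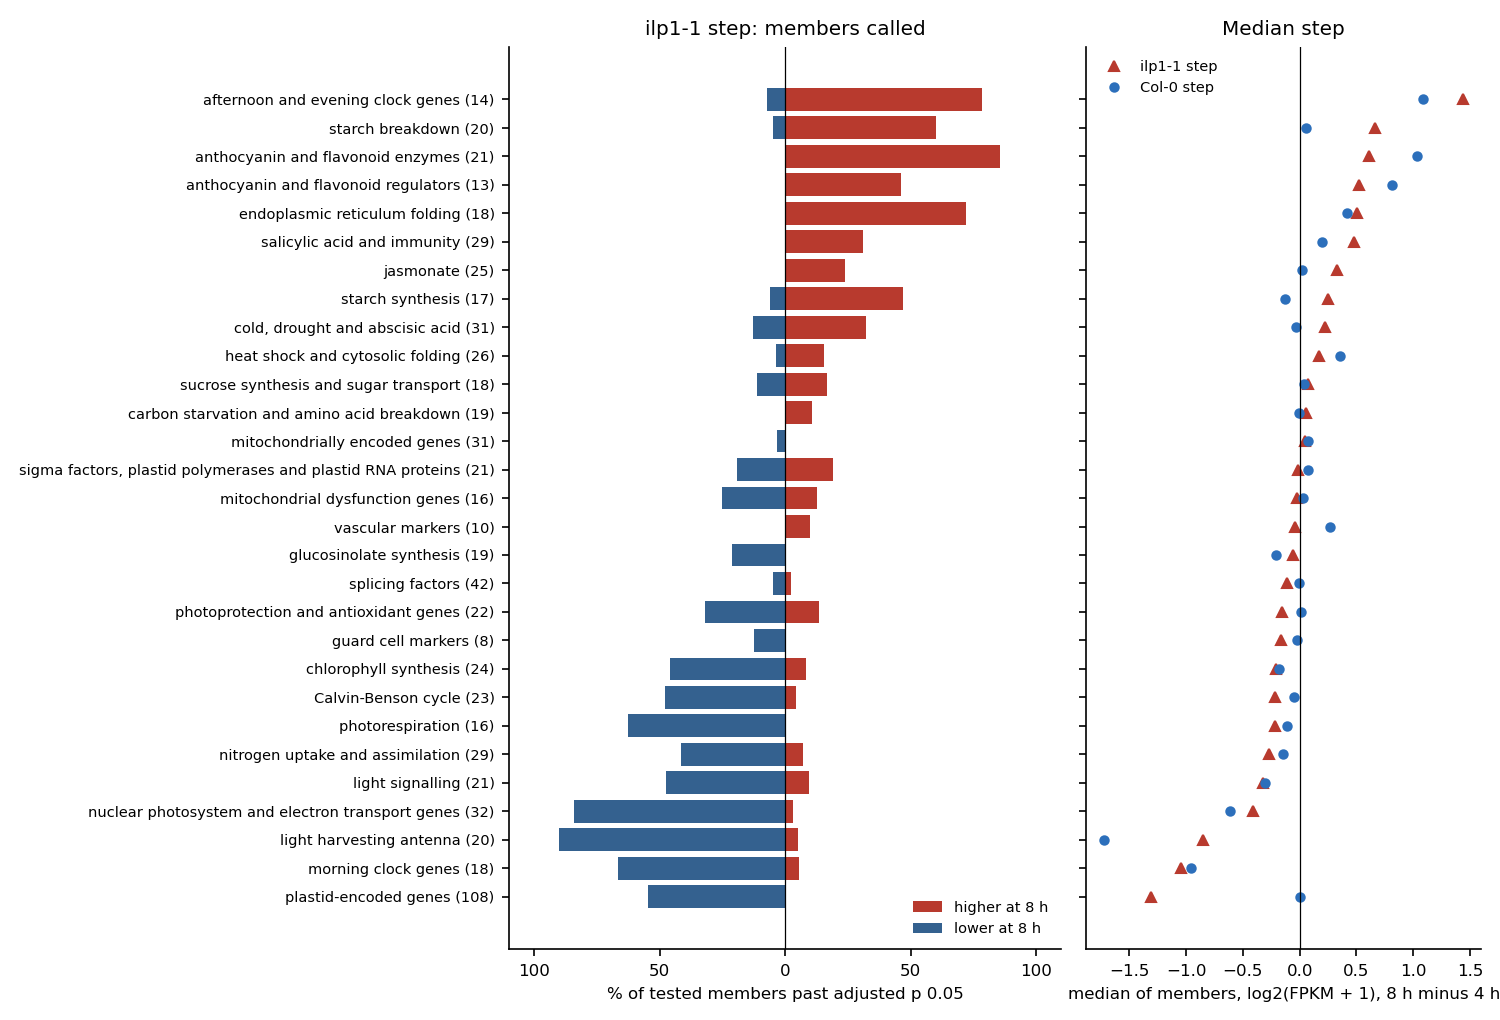
Left, percent of the tested members of each gene list (number in brackets) that passed as higher (red) or lower (blue) at 8 h in ilp1-1; right, median step of the same members in ilp1-1 (triangles) and Col-0 (circles) on the log2(FPKM + 1) scale. Evening clock, starch breakdown and flavonoid genes lie at the top with medians from 0.61 to 1.44 in ilp1-1, and antenna, morning clock and plastid-encoded genes at the bottom with medians from -0.85 to -1.31.

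Genes that moved in opposite directions numbered 45 that rose in ilp1-1 and fell in Col-0 and 25 of the reverse. Together they were 70 of 19311 genes tested and 5.89% of the 1189 called in both steps. The difference of steps passed for all 70, an outcome fixed by choosing genes with opposite calls in the same fit. Besides PRR5, PORB, STP13, CBF3 and MYBL2 in the first group stood the thaumatin-like gene AT1G20030, at 4.77 and 2.88 FPKM at 4 h and 17.9 and 16.6 FPKM at 8 h in ilp1-1 and 16.9 and 19.4 at 4 h and 6.47 and 5.67 at 8 h in Col-0 (difference 3.39 ± 0.33 (adjusted p = 2.2e-05)). The B-box gene BBX22 rose from 38.0 and 34.0 to 52.4 and 48.7 FPKM in ilp1-1 and fell in Col-0 (difference 1.19 ± 0.18 (adjusted p = 8.3e-04)), although its ilp1-1 call was lost in at least 1 fit without a library. In the reverse group MIR864A, a microRNA locus, was at 4.80 and 5.90 FPKM at 4 h and 0.787 and 0.852 FPKM at 8 h in ilp1-1 and 3.41 and 0.916 at 4 h and 6.88 and 5.40 at 8 h in Col-0; its difference (-3.09 ± 0.55 (adjusted p = 0.004)) was lost with a pseudocount of 0.1 and with limma-voom. Among other genes with the widest differences, CIPK20, a protein kinase gene, was at 12.1 and 10.5 FPKM at 4 h and 4.37 and 4.20 FPKM at 8 h in ilp1-1 and 44.5 and 39.7 at 4 h and 1.32 and 1.22 at 8 h in Col-0 (difference 3.03 ± 0.19 (adjusted p = 4.6e-07)). AT4G18422, of unknown function, was at 20.9 and 27.5 FPKM at 4 h and 122 and 109 FPKM at 8 h in ilp1-1 and 10.3 and 14.3 at 4 h and 5.17 and 5.51 at 8 h in Col-0 (difference 3.27 ± 0.56 (adjusted p = 0.0028), lost with a pseudocount of 0.1). AT1G70640 was at 1.52 and 1.51 FPKM at 4 h and 14.7 and 14.4 FPKM at 8 h in ilp1-1 and 9.63 and 10.6 at 4 h and 10.2 and 7.01 at 8 h in Col-0 (difference 2.86 ± 0.30 (adjusted p = 4.2e-05)). AT1G30250 was at 2.11 and 1.34 FPKM at 4 h and 1.07 and 1.07 FPKM at 8 h in ilp1-1 and 1.74 and 1.67 at 4 h and 9.56 and 6.31 at 8 h in Col-0 (difference -2.08 ± 0.25 (adjusted p = 1.1e-04)).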

How the data were processed

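RNA sequencing libraries of whole leaves were made from poly-A RNA with a directional dUTP protocol, per the labels' protocols. The authors deposited 10 tables of FPKM values for 33104 genes, 1 for each genotype and hour. HISAT2 2.0.5, featureCounts 1.5.0-p3 and TAIR10 are named per the submitters' processing notes. How strands were counted, which annotation release was used and which tool computed FPKM is not given in the sources used here. Reads of overlapping and antisense genes may therefore be mixed. FPKM times gene length gave whole reads for 100% of values in every library (tolerance 0.001 reads). The library sizes recovered in this way stood in a fixed ratio to median-ratio size factors in all 20 libraries. The factors were taken over genes above 0 in every library. Gene starts and ends matched the TAIR10.1 annotation for 99.97% of 32548 nuclear genes, whose coordinates and promoters were therefore read from TAIR10.1.

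Genes that reached 1 FPKM in 2 or more libraries (19311, of which 197 are unnamed transcript models) were tested on log2(FPKM + 1) with limma 3.58.1 in R 4.3.3. Means of the 10 groups were fitted (intensity trend; 10 residual degrees of freedom, prior degrees of freedom 5.12 at the median), with Benjamini-Hochberg adjustment within each contrast and a threshold of 0.05. Named genes are ILP1; the 12 highest and 12 lowest ilp1-1 steps among genes that passed, whose higher hour averaged 5 FPKM or more and whose libraries did not overlap; the 6 highest and 6 lowest differences of steps with such a mean in 1 of 4 groups; and, from each list, the 4 members with the smallest adjusted p. Other list members are given with their values, and BBX22, ELIP1, GPT2, HY5 and others outside the rule were chosen after their values were seen. The members and lists were chosen with earlier results of these data known. All 592 list genes are in the tables. Alternatives were a pseudocount of 0.1, no filter, the libraries of the contrast alone, a replicate block, no trend, scaling by total reads, limma-voom on recovered reads, and leaving out each library; where this leaves 1 library in a group, it is assumed to vary like the other groups.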

Additional observations from a re-analysis of the deposited data

Results flagged for a closer look

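The step differed between ilp1-1 and Col-0, by limma's test of the difference of steps, for 749 genes and for the results named here; each group held 2 libraries, and groups of this size were not tested for outlying libraries.

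Of the named genes, the step was higher in ilp1-1 for LHCB1.4 (3.95), AT1G20030 (3.39), AT4G18422 (3.27), PRR5 (3.06), CIPK20 (3.03) and AT1G70640 (2.86), all as log2 differences of the steps. It was lower in ilp1-1 for MIR864A (-3.09), the plastid tRNA gene TRNI.2 (-2.84), the plastid gene PSBN (-2.58), RVE2 (-2.12), AT1G30250 (-2.08) and the plastid NDH gene NDHJ (-2.06). Of the 12 calls named here, 6 were lost under at least 1 setting other than leaving out a library. Some of the 12 were also lost when a library was left out. For TRNI.2, PSBN and NDHJ, 4 h replicate 2 stood well above replicate 1 in ilp1-1, and Col-0 levels were low (at most 4.01 FPKM). TRNI.2 was at 7.78 and 20.5 FPKM at 4 h and 3.97 and 5.37 FPKM at 8 h in ilp1-1 and 0 and 0 at 4 h and 1.93 and 1.94 at 8 h in Col-0 (adjusted p = 0.014), PSBN at 18.6 and 36.5 FPKM at 4 h and 10.4 and 7.72 FPKM at 8 h and 1.19 and 0.638 at 4 h and 3.73 and 2.69 at 8 h (adjusted p = 0.023), and NDHJ at 12.2 and 25.2 FPKM at 4 h and 5.61 and 8.06 FPKM at 8 h and 1.15 and 1.94 at 4 h and 2.80 and 4.01 at 8 h (adjusted p = 0.033).

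By list, the steps differed for 18 of 20 antenna genes, 14 of 32 nuclear photosystem and electron transport genes, 11 of 20 starch breakdown genes, 9 of 31 genes of cold, drought and abscisic acid, 7 of 24 chlorophyll synthesis genes, 6 of 18 morning clock genes, 6 of 16 photorespiration genes, 6 of 21 flavonoid enzymes, 6 of 22 photoprotection genes, 5 of 17 starch synthesis genes and 4 of 14 evening clock genes. These are the lists in which at least 25% of the tested members passed, beside 3.88% of all genes.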

How the results depend on the processing

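Counts of calls in the ilp1-1 step were 2398 with a pseudocount of 0.1, 2310 with no filter (25456 genes tested), 2102 without the trend, 2729 with limma-voom on recovered reads, 2636 with scaling by total reads and 1651 in a fit of the 4 libraries alone, and 1442 to 1572 with a library left out. The Col-0 step gave 2337 to 3299 under the first 5 of these settings, fell to 1151 in a fit of its own 4 libraries (fewer degrees of freedom by construction) and to 1585 to 1933 with a library left out. The difference of steps gave 509 to 821 under all settings that kept every library and 469 to 648 with a library left out, where fewer samples enter by construction. Same-numbered libraries did not deviate together (correlations of -0.023 to 0.033 over 6 pairs of groups), so the numbers do not pair them; with a replicate block 2442, 2561 and 720 genes passed. No call of the ilp1-1 or Col-0 step reversed under any setting, and 1 of the 749 differences did, with limma-voom. Of 339 list members and named genes called in the ilp1-1 step, 146 lost the call in at least 1 fit without a library and 126 under at least 1 other setting. List medians kept within the spread between libraries in 271 of 330 comparisons and moved further in 59. The 271 include settings that cannot change a median: no filter, the libraries of the contrast alone, a replicate block and no trend. The share that kept is therefore no measure of stability. Depth of 12.2 to 15.69 M reads and 2 libraries per group limit calls to larger or more even changes.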

Other observations

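Families by the domain names in the deposited annotation were also counted in the ilp1-1 step, and some of their genes are list members already counted in the report. The share called is given for each, beside 12.8% of all genes. Of 40 genes annotated as auxin-inducible, 10 fell and none rose (25% called, median -0.32). Of 18 HSP70 genes 9 rose and none fell (50% called, median 0.23), 4 of the 9 being list members. Of 49 WRKY genes 8 rose and none fell (median 0.21), 3 of the 8 being list members, and their share of 16.3% was near that of all genes. Of 25 genes counted under the name CCT, a domain of CONSTANS-like and PRR proteins, 6 rose and 6 fell. So 48% were called against 12.8% of all genes, and 1 of these 12 is a list member. The 25 are not all genes with this domain. At most 1 of the called list members PRR3, PRR5, PRR9 and TOC1 is among them. Of 80 F-box genes 1 rose and none fell (1.25% called), and of 50 kinesin genes none rose and 1 fell (2% called). Protein-coding genes were called in 13.2% of cases, long non-coding RNAs in 4.85% (10 higher and 8 lower of 371) and small nucleolar RNAs in 4.76% (3 higher and 5 lower of 168). These families were chosen after their values were seen and are given with no test.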
